A study of Mus musculus with 2 samples.

Results

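The enzymes described here build the sugar chains of mucins and related glycoproteins. They were chosen by gene name: every gene of the GalNAc-transferase, Gcnt, B3gnt, B3galt, B4galt, fucosyltransferase, St3gal and St6gal series that the authors' deposited table names for any of its 11 cell clusters, with C1galt1, C1galt1c1 and A4gnt. The rule found 59 of the 18319 genes named in the table. It takes in the antisense RNA Galnt6os and the name Galnt2l, which the annotation used here does not hold, so 57 members are enzymes or, for C1galt1c1, the chaperone of an enzyme. A further 11 mouse genes fit the rule in GENCODE but have no value in the clusters and are not analysed here. These are A4gnt, B3galt2, B3galt5, B3gnt6, B4galt4, Fut1, the pseudogene Fut4-ps1, Fut7, Gcnt7, St6galnac1 and St6galnac5.

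The cells came from 2 tumors that grew in female NuJ mice after injection of mouse dysplastic stem cells, named DP-DSCs in the labels. A cystic adenocarcinoma was taken at 10 weeks and a tubular adenocarcinoma at 13 weeks, with 1 single-cell library of each on the inDrop droplet platform. The table pools them and carries cluster numbers with no tumor type, so the tumors could not be compared, and no value has an error across animals. It gives a linear fold and a p-value for every gene with a fold above 1.5 in a cluster. What each fold is relative to is not stated there, the cells behind each cluster and the depth per cell are unknown, and folds of different clusters may share cells. Below, a member is listed in a cluster if the table gives it a fold there, and raised if that fold reaches 2 while the deposited p does not exceed 0.05. The p compares cells of the same libraries and not animals, so it serves as a filter and is not printed. For some members the place in the order by p is given, and it carries the same limit.

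Mucin-type glycosylation starts in the Golgi apparatus when a GalNAc-transferase links GalNAc to a serine or threonine. Core 1 synthase then adds galactose, branching enzymes add GlcNAc, galactosyltransferases and GlcNAc-transferases lengthen the chains, and fucosyltransferases and sialyltransferases cap them. In the stomach these chains make up much of the mass of the mucus layer, and truncated or heavily sialylated chains are well known on gastrointestinal carcinomas. Several members also act on N-glycans, glycolipids or proteoglycans.

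Cell types were read from fixed marker lists. By the authors' deposited table, clusters 6 and 9 each had 6 of 6 gastric surface mucous genes raised and 5 of 9 general epithelial genes. The surface mucous list held 7 genes, but Muc5ac was named for no cluster and is not counted. Cluster 3 had 2 and 4 of the same lists raised and was also epithelial-like. Cluster 4 was macrophage-like with 7 of 7 macrophage genes raised, cluster 10 neutrophil-like with 6 of 6 neutrophil genes, and cluster 11 fibroblast-like with 7 of 7 fibroblast genes. Cluster 8 had 7 of 7 macrophage and 6 of 7 dendritic genes raised and keeps its number. Cluster 2 had 5 of 5 erythroid genes raised, cluster 5 had 2 of 5 mast cell genes and 1 of 9 epithelial genes, cluster 7 had 2 of 9 epithelial genes, and cluster 1 had no raised gene of any marker list, and these keep their numbers too. Genes of a further list, that of mucous neck and metaplastic gland cells, had 4 of 6 raised in cluster 9 and 3 each in clusters 3 and 6. Cluster 7 had 2 of them raised, and clusters 4 and 8 had 1 each. Markers of other cells were also raised in these clusters, among them 5 of 7 T and NK genes, 3 of 7 macrophage genes and 2 of 7 dendritic genes in cluster 10, 3 of 7 dendritic genes in cluster 4, 2 of 7 T and NK genes in cluster 8, and 1 of 3 endothelial genes in each of clusters 9, 10 and 11. Also raised were 1 of 5 mast cell genes in each of clusters 4 and 6, and 1 of 7 fibroblast genes in cluster 4. The part of such cells in the values below was not tested.

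The promoters of 6 members are shown, 2 from each of the 3 compartments that carry most of the results. St3gal4 and St3gal5 were raised in clusters 6 and 9, Galnt5 and B3gnt7 in cluster 4, and Galnt17 and Galnt15 in cluster 11. They are the 2 members of largest fold in each compartment among the 32 members with exactly 1 promoter entry; for the epithelial clusters the smaller of both folds was ranked. The sequences are from RefSeq on GRCm38.p6, which held entries for 43 of the 59 members, and run from 250 bases before to 50 after the start that RefSeq gives, 5′ to 3′ on the strand of the gene. GENCODE places the outer start elsewhere: the 2 starts are 2404 bases apart for St3gal4, 975 for Galnt17, 389 for B3gnt7, 271 for Galnt5, 114 for Galnt15 and 16 for St3gal5, and which start these cells use was not tested. Capitals mark every match, on either strand, to the GC box GGGCGG, the CCAAT box, the TATA box TATAAA or the ETS-type core GAGGAA.

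St3gal4, chr9:35116815-35117114 (- strand): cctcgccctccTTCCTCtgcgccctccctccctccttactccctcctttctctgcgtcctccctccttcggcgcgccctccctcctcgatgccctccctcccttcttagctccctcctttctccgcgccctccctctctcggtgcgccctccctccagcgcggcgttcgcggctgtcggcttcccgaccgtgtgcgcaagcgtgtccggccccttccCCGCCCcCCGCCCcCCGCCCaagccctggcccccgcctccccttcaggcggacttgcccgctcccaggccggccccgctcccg
St3gal5, chr6:72097358-72097657 (+ strand): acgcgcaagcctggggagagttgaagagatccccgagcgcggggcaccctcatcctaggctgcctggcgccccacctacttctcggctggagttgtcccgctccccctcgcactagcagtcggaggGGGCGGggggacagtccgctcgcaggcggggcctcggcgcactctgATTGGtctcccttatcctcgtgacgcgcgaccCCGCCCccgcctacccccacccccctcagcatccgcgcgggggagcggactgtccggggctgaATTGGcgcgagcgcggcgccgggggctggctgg
Galnt5, chr2:57997905-57998204 (+ strand): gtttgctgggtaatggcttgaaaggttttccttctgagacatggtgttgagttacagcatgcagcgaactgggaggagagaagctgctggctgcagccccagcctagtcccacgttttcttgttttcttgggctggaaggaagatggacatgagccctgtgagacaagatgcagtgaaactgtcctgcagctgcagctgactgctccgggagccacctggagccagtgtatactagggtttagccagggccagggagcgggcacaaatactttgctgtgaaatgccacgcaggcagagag
B3gnt7, chr1:86302971-86303270 (+ strand): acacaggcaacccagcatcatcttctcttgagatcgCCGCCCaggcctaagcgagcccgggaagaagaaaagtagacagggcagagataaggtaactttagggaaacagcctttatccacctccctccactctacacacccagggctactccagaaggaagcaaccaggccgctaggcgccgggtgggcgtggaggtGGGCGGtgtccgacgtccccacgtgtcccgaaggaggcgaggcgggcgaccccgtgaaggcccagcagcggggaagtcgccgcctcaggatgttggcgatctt
Galnt17, chr5:131307473-131307772 (- strand): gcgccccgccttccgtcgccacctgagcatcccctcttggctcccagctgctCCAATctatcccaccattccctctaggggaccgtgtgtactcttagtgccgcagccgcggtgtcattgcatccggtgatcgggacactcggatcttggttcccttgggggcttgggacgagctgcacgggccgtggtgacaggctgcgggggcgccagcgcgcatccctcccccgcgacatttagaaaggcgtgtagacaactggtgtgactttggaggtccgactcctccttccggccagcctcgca
Galnt15, chr14:32028853-32029152 (+ strand): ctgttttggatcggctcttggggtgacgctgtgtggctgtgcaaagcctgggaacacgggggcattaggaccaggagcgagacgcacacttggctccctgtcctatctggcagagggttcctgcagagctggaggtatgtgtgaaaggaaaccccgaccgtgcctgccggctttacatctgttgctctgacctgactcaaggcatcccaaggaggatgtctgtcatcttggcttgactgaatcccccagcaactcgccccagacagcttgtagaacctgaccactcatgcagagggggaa

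The promoters of St3gal4 and St3gal5, the epithelial-cluster members, had a GC content of 74.0% and 72.7% with 31 and 33 CG dinucleotides. The medians were 61.0% and 19.5 over the member entries and 52.7% and 7 over all entries. The St3gal4 window held 3 GC boxes, at 33, 26 and 19 bases before the start, all on the opposite strand, and St3gal5 held 2 GC boxes and 2 CCAAT boxes. Galnt5, of the macrophage-like cluster, was near the median of all entries, with 54.3% GC, 5 CG dinucleotides and 0 matches, while B3gnt7 had 62.0% GC, 21 CG dinucleotides and 2 GC boxes. Galnt17 and Galnt15, from the fibroblast-like cluster, had 64.3% and 57.3% GC, with 24 and 9 CG dinucleotides. A GC box was present in 53.3% of the 60 promoter entries of members and in 35.7% of all 32851 entries of this length, non-coding genes included. The TATA box was in 1.67% of member entries and 13.6% of all, CCAAT in 30.0% and 37.4%, and GAGGAA in 33.3% and 28.3%. These are matches of letters and say nothing of the binding of a factor.

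The members were raised mainly in 4 of the 11 clusters: the epithelial clusters 9 and 6, the macrophage-like cluster 4 and the fibroblast-like cluster 11. By the deposited folds 53 members (89.8%) were raised in at least 1 cluster, against 78% of all named genes. In cluster 9, 23 members (39.0%) were raised and the background was 26.6%. Cluster 6 had 18 members raised (30.5%, background 20.3%), cluster 4 had 16 (27.1%, background 18.6%) and cluster 11 had 13 (22.0%, background 17%). Each of these 4 shares lay above that of all genes, with no test of the difference.

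The remaining clusters had few raised members. Cluster 5 had 4 (6.78%, background 4.32%), cluster 8 had 4 (6.78%, background 6.36%), cluster 2 had 3 (5.08%, background 2.89%), cluster 1 had 2 (3.39%, background 1.82%) and cluster 3 had 2 (3.39%, background 4%). Clusters 7 and 10 had 0, with backgrounds of 3.42% and 4.9%. Whatever the p, a fold of at least 2 was reached by 13 members for cluster 5 (22.0%, background 16.3%). The same count was 11 for cluster 3 (18.6%, background 22%), 10 for cluster 8 (16.9%, background 20.3%) and 10 for cluster 10 (16.9%, background 15.9%). It was 4 for cluster 1 (6.78%, background 5.65%) and 2 for cluster 7 (3.39%, background 10.1%). The shares of clusters 3, 7 and 8 lay below the background. With the fold limit at 3, cluster 9 had 14 raised members (23.7%, background 14.1%), cluster 6 had 9 (15.3%, background 12%), and clusters 1 and 2 had 1 each (1.69%, backgrounds 1.4% and 1.92%).

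**Figure D1:**
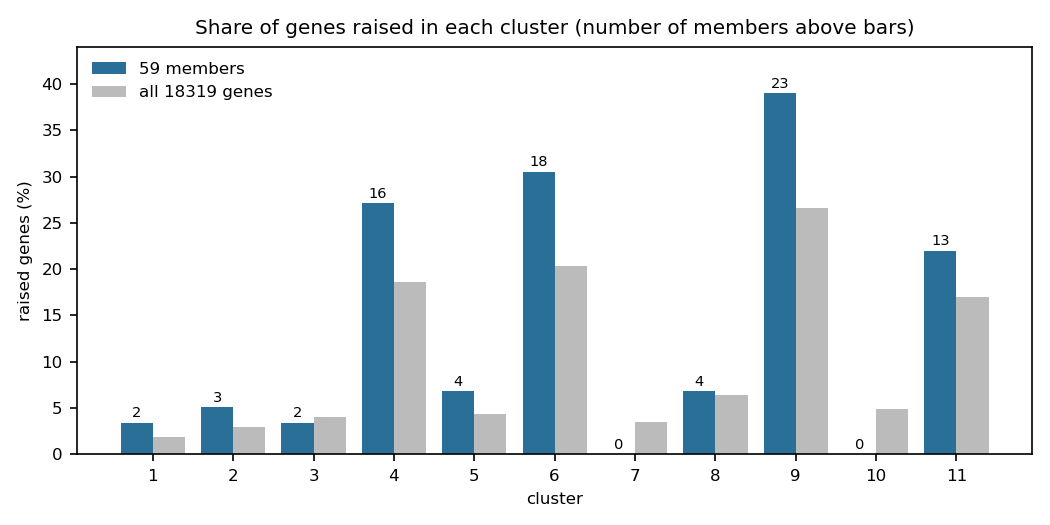
Share of genes raised in each of the 11 clusters (y axis, percent; x axis, cluster number) for the 59 members and for all 18319 named genes, with the number of raised members above each blue bar. The members' bars are tallest in clusters 9, 6, 4 and 11, at 39.0%, 30.5%, 27.1% and 22.0%, where the bars of all genes are also tallest.

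No member was raised in more than 3 clusters. Of the 59, 27 were raised in exactly 1 cluster (45.8%, against 50.9% of all genes), 20 in exactly 2 (33.9%, against 22.3%) and 6 in exactly 3 (10.2%, against 4.44%). Galnt2, Galnt4, Galnt10, B3gnt9, St3gal1 and St3gal2 were the 6 raised in 3 clusters. The 6 members raised in none were Galnt13, Galnt2l, B4galt7, Fut2, St6gal1 and St6gal2. Over all clusters the members had 161 folds above 1.5, of which 85 (52.8%) were raised, against 43.1% of the 46855 folds of all genes. The median of the raised folds was 3.81 for members and 3.85 for all genes.

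**Figure D2:**
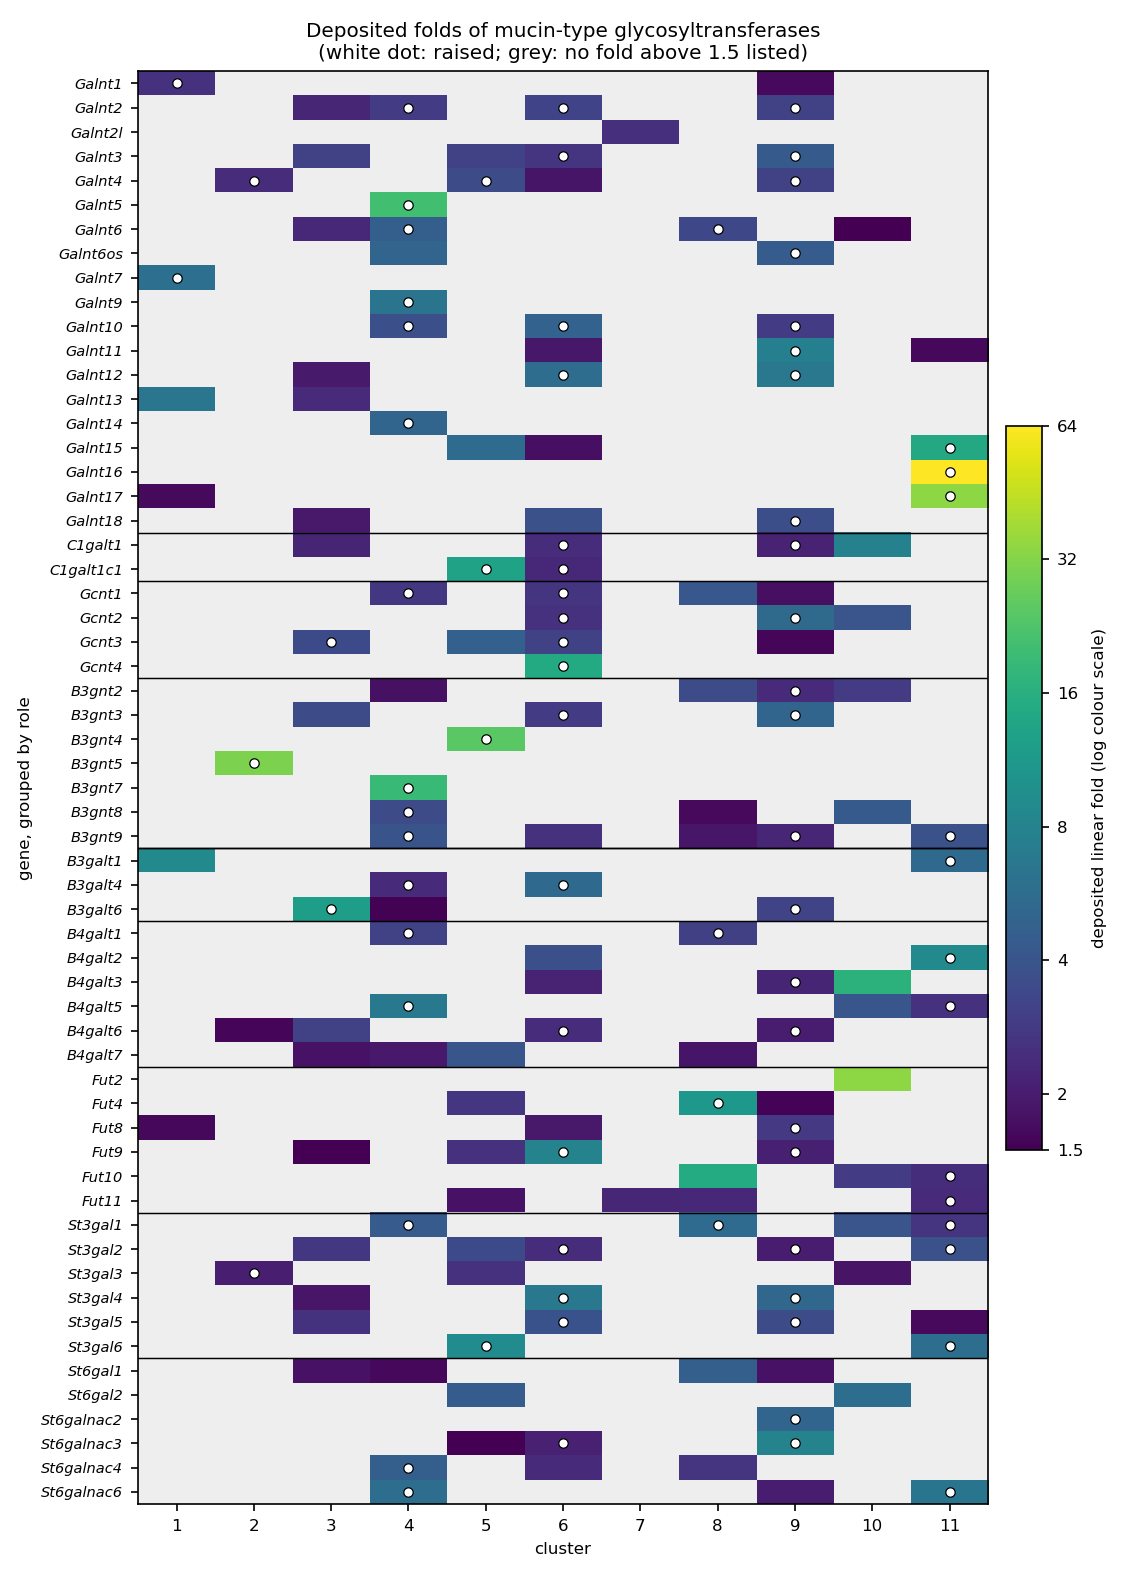
Deposited linear fold of each member (rows, grouped by role from initiation at the top to sialylation at the bottom) in each cluster (columns), on a logarithmic colour scale from 1.5 to 64. White dots mark raised members and grey cells have no fold above 1.5; the brightest cell is Galnt16 in cluster 11 at 63.8.

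The GalNAc-transferases, which begin the chain and decide which serines and threonines carry one, had their largest folds on different paralogs in different clusters. Of the 19 names in this series, Galnt6os and Galnt2l included, 17 were raised in at least 1 cluster, as were 78% of all genes. Cluster 9 had 8 of them (42.1%, against 26.6% of all genes) and cluster 4 had 6 (31.6%, against 18.6%). The 4 of cluster 6 (21.1%) and the 3 of cluster 11 (15.8%) were close to the backgrounds of 20.3% and 17%. Cluster 1 had 2 (background 1.82%), and clusters 2, 5 and 8 had 1 each (5.26%, backgrounds 2.89%, 4.32% and 6.36%). The 8 of cluster 9 include the antisense RNA Galnt6os. The isoforms with the largest folds in the epithelial clusters differed from those in the macrophage-like and fibroblast-like clusters. Among all genes, 50.9% were raised in exactly 1 cluster, so such a difference is common.

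In the epithelial clusters, Galnt12, an isoform of the digestive tract, had folds of 5.71 in cluster 6 and 6.70 in cluster 9 per the authors' deposited table; its fold of 1.97 in cluster 3 was not raised. Galnt3, which is known for protecting the hormone FGF23 from cleavage and is widespread in secretory epithelia, was at 4.35 in cluster 9 and 2.67 in cluster 6 per the authors' deposited table. It was also listed at 3.11 in cluster 3 and 3.14 in cluster 5 per the authors' deposited table, without being raised. Galnt3 stood early in the order by p in cluster 9, at row 157 of 7131. Both genes thus had folds in epithelial clusters and in cluster 5 at most, and none in clusters 4, 8, 10 and 11.

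Galnt2, a broadly expressed isoform with many substrates, was raised in clusters 4, 6 and 9 at 2.89, 3.20 and 3.16 per the authors' deposited table. Galnt10, which prefers peptides that already carry GalNAc, was raised in the same clusters at 3.75, 4.87 and 2.93 per the authors' deposited table. These 2 isoforms therefore crossed the border between the macrophage-like and the epithelial clusters. Galnt11, an isoform that glycosylates the receptor Notch1 in frog embryos, was raised in cluster 9 at 7.55 per the authors' deposited table, and its folds of 1.90 in cluster 6 and 1.62 in cluster 11 were not raised. Galnt18 was raised in cluster 9 at 3.68 per the authors' deposited table, and its folds of 3.78 in cluster 6 and 1.95 in cluster 3 were not raised.

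Galnt4, another isoform that extends GalNAc-bearing peptides, was raised in clusters 2, 5 and 9 at 2.40, 3.58 and 3.12 and listed in cluster 6 at 1.85 per the authors' deposited table. The whole gene, 5089 bases, lies inside Poc1b on the same strand, so reads of the 2 genes could be split or confused by the counting. Poc1b was listed in cluster 5 alone and raised there at 47.2 per the authors' deposited table. The value of Galnt4 in cluster 5 is therefore uncertain.

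Of the 6 GalNAc-transferases raised in cluster 4, Galnt2 and Galnt10 were also raised in clusters 6 and 9, and Galnt6 in cluster 8. Galnt5 had a fold of 20.5, Galnt9, known mainly from brain, 6.34, and Galnt14, linked in human cells to the glycosylation of death receptors, 5.09, per the authors' deposited table. None of these 3 had a fold above 1.5 in any other cluster. Being raised in exactly 1 cluster was common, at 50.9% of all genes. In the order by p of cluster 4, Galnt5 and Galnt14 stood late, at rows 3742 and 3376 of 5762, and Galnt9 at row 1674. Galnt6, which modifies fibronectin and is abundant in several human carcinomas, was raised at 4.68 in cluster 4 and 3.39 in cluster 8 per the authors' deposited table. It was also listed at 2.27 in cluster 3 and 1.52 in cluster 10 per the authors' deposited table, without being raised in either, and had no fold in clusters 6 and 9. Its antisense RNA Galnt6os, which lies inside the gene over 9124 bases on the other strand, was raised at 4.49 in cluster 9 and listed at 5.12 in cluster 4 per the authors' deposited table. Whether the counting used strand is not stated in the sources used here; reads of the gene and of its antisense RNA may not be separable.

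The fibroblast-like cluster 11 held the largest fold of any member. Galnt16 was at 63.8 per the authors' deposited table, row 75 of 4710 by p, with no fold above 1.5 in any other cluster. Galnt17 followed at 33.7 per the authors' deposited table, at row 161 by p, and its other fold, 1.66 in cluster 1, was not raised. Galnt15 was at 14.4 in cluster 11 per the authors' deposited table, and its folds of 5.61 in cluster 5 and 1.75 in cluster 6 were not raised. These 3 enzymes and no other GalNAc-transferase were raised in cluster 11. Galnt16 lies on chromosome 12 from 80518277 to 80630972 and Galnt17 on chromosome 5 from 130872082 to 131308497.

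Cluster 1 had as its only raised members the GalNAc-transferases Galnt1, a broad-specificity isoform at 2.56, and Galnt7, which acts on glycopeptides, at 5.95, per the authors' deposited table. Galnt1 was also listed at 1.65 in cluster 9, below the fold of 2, per the authors' deposited table. Galnt13, known from neural tissue, was at 6.50 in cluster 1 and 2.33 in cluster 3 per the authors' deposited table and was raised in neither. Galnt2l was listed at 2.48 in cluster 7 per the authors' deposited table and was not raised.

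Both genes of the core 1 step, the one after initiation, were raised in cluster 6 (background 20.3%). In each of clusters 5 and 9, 1 of them was raised (backgrounds 4.32% and 26.6%). C1galt1, the core 1 synthase that adds galactose to GalNAc, was at 2.40 in cluster 6 and 2.14 in cluster 9 per the authors' deposited table. It was also listed at 2.21 in cluster 3 and 7.82 in cluster 10 per the authors' deposited table, without being raised. C1galt1c1, the X-linked chaperone Cosmc without which core 1 synthase does not fold, was raised at 2.27 in cluster 6 and at 13.0 in cluster 5 per the authors' deposited table. It was not listed in cluster 9. The folds of both genes in cluster 6 lay near the threshold of 2.

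All 4 branching enzymes of the Gcnt series were raised in cluster 6, where 20.3% of all genes were. Gcnt4, a core 2 enzyme, had a fold of 14.8 per the authors' deposited table, the largest of any member in that cluster, and no fold above 1.5 elsewhere. Gcnt3, the core 2 and core 4 enzyme of mucus-secreting tissues, was raised at 3.14 in cluster 6 and 3.47 in cluster 3 per the authors' deposited table. It stood at row 125 of 6664 by p in cluster 6 and was also listed at 4.74 in cluster 5 and 1.61 in cluster 9 per the authors' deposited table, raised in neither. Gcnt1, the core 2 enzyme of leukocytes, was raised at 2.65 in cluster 6 and 2.75 in cluster 4 per the authors' deposited table. Its folds of 4.18 in cluster 8 and 1.74 in cluster 9 per the authors' deposited table were not raised. Gcnt2, which makes the branched I blood group chains, was at 5.52 in cluster 9 and 2.56 in cluster 6 per the authors' deposited table, and its fold of 4.05 in cluster 10 was not raised. In cluster 9 it was the only raised Gcnt gene.

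**Figure D3:**
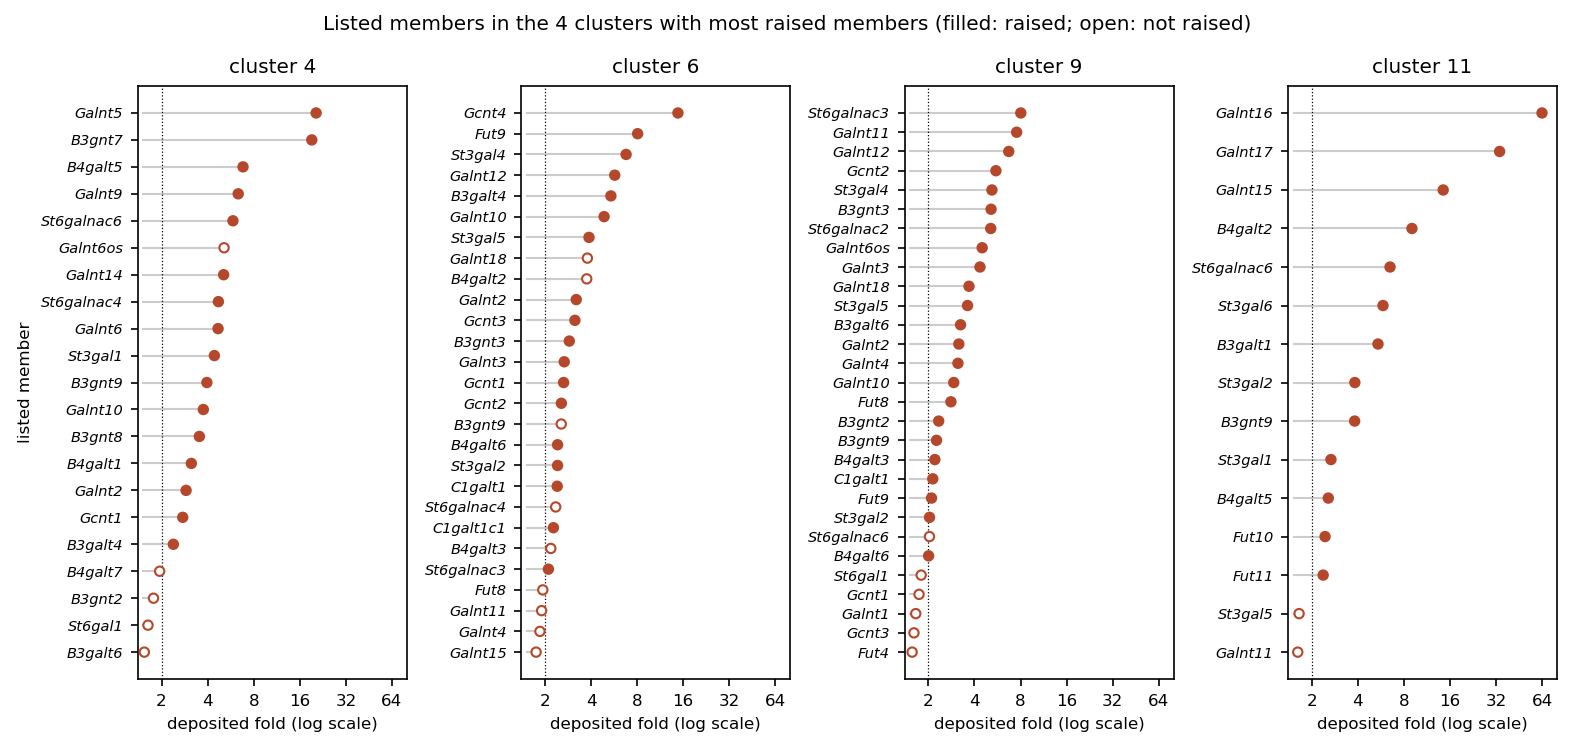
Deposited fold (x axis, logarithmic) of every listed member in clusters 4, 6, 9 and 11, ordered by fold; filled points are raised, open points are not, and the dotted line is at a fold of 2. Galnt5 leads cluster 4 at 20.5, Gcnt4 cluster 6 at 14.8, St6galnac3 cluster 9 at 8.03 and Galnt16 cluster 11 at 63.8.

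Among the B3gnt enzymes, which add GlcNAc in beta-1,3 linkage to lengthen chains, all 7 were raised in some cluster, as were 78% of all genes. Clusters 4 and 9 had 3 each (42.9%, backgrounds 18.6% and 26.6%). B3gnt3, which extends core 1, was raised at 5.13 in cluster 9, where it stood at row 77 of 7131 by p, and at 2.88 in cluster 6 per the authors' deposited table. Its fold of 3.52 in cluster 3 per the authors' deposited table was not raised. B3gnt2, the main enzyme of polylactosamine, was raised at 2.33 in cluster 9 per the authors' deposited table, and its folds of 3.52, 2.89 and 1.77 in clusters 8, 10 and 4 were not raised. B3gnt7, which acts on keratan sulfate chains, had a fold of 19.2 in cluster 4 per the authors' deposited table and none elsewhere. B3gnt8, a partner of B3gnt2, was raised at 3.53 in cluster 4 per the authors' deposited table, and its folds of 4.33 in cluster 10 and 1.66 in cluster 8 were not raised. It overlaps Bckdha on the opposite strand, which was raised in cluster 10 at 16.8 per the authors' deposited table and was not listed in cluster 4. B3gnt9 was raised in clusters 4, 11 and 9 at 3.95, 3.81 and 2.26 per the authors' deposited table, and its folds of 2.55 in cluster 6 and 1.88 in cluster 8 were not raised.

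The other 2 had a fold in a single cluster each. B3gnt5, which starts the lacto-series glycolipids, was at 30.4 in cluster 2 per the authors' deposited table. B3gnt4, a polylactosamine enzyme, was at 24.6 in cluster 5 per the authors' deposited table. The 1423 bases of B3gnt4 lie wholly within Diablo on the opposite strand, and Diablo was raised in cluster 9 at 3.33 per the authors' deposited table and was not listed in cluster 5.

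The galactosyltransferases with beta-1,3 linkage had 3 members. B3galt6, which builds the linker of proteoglycan chains, was raised at 12.1 in cluster 3 and 3.24 in cluster 9 and listed at 1.54 in cluster 4 per the authors' deposited table. B3galt4, which makes gangliosides, was raised at 5.39 in cluster 6 and 2.39 in cluster 4 per the authors' deposited table. B3galt1, which makes type 1 chains, was raised at 5.41 in cluster 11 per the authors' deposited table, and its fold of 9.01 in cluster 1 was not raised. Gcnt3 and B3galt6 were the only raised members of cluster 3.

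Of the 6 genes with beta-1,4 linkage, 5 were raised somewhere, in clusters that differed between paralogs. Such differences are common, since 50.9% of all genes were raised in exactly 1 cluster and 22.3% in exactly 2. B4galt1, the main enzyme that makes N-acetyllactosamine and a subunit of lactose synthase, was raised at 3.13 in cluster 4 and 3.07 in cluster 8 per the authors' deposited table, with no fold in the epithelial clusters. In cluster 4 it had the best place of any member in the order by p, row 239 of 5762. B4galt5, a lactosylceramide synthase, was raised at 6.81 in cluster 4 and 2.56 in cluster 11 per the authors' deposited table, and its fold of 4.08 in cluster 10 was not raised. Its relative B4galt6 was raised at 2.42 in cluster 6 and 2.01 in cluster 9 per the authors' deposited table, and was at 3.15 in cluster 3 and 1.57 in cluster 2 without being raised. The 2 lactosylceramide synthases were thus raised in different clusters.

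B4galt2, which makes N-acetyllactosamine, was raised at 9.02 in cluster 11 and listed at 3.75 in cluster 6 per the authors' deposited table. It shares 3298 bases with Ccdc24 on the same strand, which was raised in clusters 6 and 9 and was not listed in cluster 11. B4galt3 was raised at 2.20 in cluster 9 per the authors' deposited table, and its folds of 16.8 in cluster 10 and 2.18 in cluster 6 were not raised. Its end overlaps Ppox on the opposite strand over 907 bases, and Ppox was raised at 2.44 in cluster 6 and 2.14 in cluster 9 per the authors' deposited table, so the modest fold of B4galt3 in cluster 9 is uncertain. B4galt7, the proteoglycan linker enzyme, was listed in clusters 3, 4, 5 and 8 at 1.81, 1.94, 4.08 and 1.85 per the authors' deposited table, and was raised in none.

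Of the fucosyltransferases, Fut9, which makes the Lewis x structure, was raised at 8.06 in cluster 6 and 2.10 in cluster 9 per the authors' deposited table. It was listed at 2.57 in cluster 5 and 1.51 in cluster 3 per the authors' deposited table, without being raised. Fut4, the other Lewis x enzyme and one typical of myeloid cells, was raised at 11.04 in cluster 8 per the authors' deposited table, and listed at 2.72 in cluster 5 and 1.57 in cluster 9. Fut8, which adds the core fucose of N-glycans, was raised at 2.81 in cluster 9, row 111 of 7131 by p, and listed at 1.94 in cluster 6 and 1.63 in cluster 1 per the authors' deposited table. The Lewis x enzymes therefore had their largest folds in different clusters, Fut9 in epithelial cluster 6 and Fut4 in cluster 8.

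Fut2, the secretor enzyme that makes the H antigen of gastric mucus, had a fold in cluster 10 only, 33.6 per the authors' deposited table, and was not raised there. Fut10 and Fut11, sequence relatives of the Lewis enzymes, were raised in cluster 11 at 2.44 and 2.37 per the authors' deposited table. Fut10 also had folds of 15.2 in cluster 8 and 2.88 in cluster 10 per the authors' deposited table, neither raised. Fut11 was at 1.81, 2.23 and 2.31 in clusters 5, 7 and 8 per the authors' deposited table, none raised. With Galnt2l it was one of the 2 members listed in cluster 7.

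All 6 alpha-2,3-sialyltransferases, which cap galactose with sialic acid, were raised in some cluster, as were 78% of all genes. Clusters 6, 9 and 11 had 3 each, or 50% (backgrounds 20.3%, 26.6% and 17%). St3gal4, which caps lactosamine chains and contributes to selectin ligands, was raised at 6.78 in cluster 6 and 5.20 in cluster 9 per the authors' deposited table, and listed at 1.88 in cluster 3. It stood at row 116 of 6664 by p in cluster 6 and at row 74 of 7131 in cluster 9, where no other member came before it. St3gal5, which makes the ganglioside GM3, was raised at 3.88 in cluster 6 and 3.604 in cluster 9 per the authors' deposited table. Its folds of 2.60 in cluster 3 and 1.65 in cluster 11 were not raised. In cluster 6 it came before every other member by p, at row 98. The promoters of both genes, printed above, are rich in CG dinucleotides.

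St3gal1, which caps core 1, was raised in clusters 4, 8 and 11 at 4.43, 5.61 and 2.67 per the authors' deposited table, and listed in cluster 10 at 4.02 without being raised. It had no fold in clusters 3, 6 and 9. St3gal2, which acts on core 1 and on gangliosides, was raised at 2.42, 2.03 and 3.82 in clusters 6, 9 and 11 per the authors' deposited table, and its folds of 2.77 in cluster 3 and 3.46 in cluster 5 were not raised. The pair that caps core 1 was thus raised in clusters 4 and 8 for St3gal1, in the epithelial clusters for St3gal2, and in cluster 11 for both. St3gal6, another enzyme of selectin ligands, was raised at 9.13 in cluster 5 and 5.84 in cluster 11 per the authors' deposited table, and in cluster 5 it stood at row 59 of 3765 by p. Part of the gene overlaps Dcbld2 on the opposite strand over 1603 bases, and Dcbld2 was itself raised in cluster 11 at 11.4 per the authors' deposited table. St3gal3 was raised at 2.04 in cluster 2 and listed at 2.57 in cluster 5 and 1.84 in cluster 10 per the authors' deposited table.

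Alpha-2,6-sialyltransferases of the St6galnac series were raised in clusters 4, 6, 9 and 11, in cluster 11 only the ganglioside enzyme St6galnac6. St6galnac3, which adds a second sialic acid to sialylated core 1 chains and gangliosides, had its fold of 8.03 in cluster 9 as the largest of any raised member there and was also raised at 2.11 in cluster 6, per the authors' deposited table. St6galnac2, which acts on GalNAc and core 1, was listed in cluster 9 alone, at 5.11 per the authors' deposited table. Both stood late in the order by p of cluster 9, St6galnac3 at row 5603 and St6galnac2 at row 5389 of 7131. St6galnac4, the other enzyme of disialylated core 1, was raised at 4.70 in cluster 4 and listed at 2.35 in cluster 6 and 2.68 in cluster 8 per the authors' deposited table. St6galnac6, a ganglioside enzyme, was raised at 5.85 in cluster 4 and 6.49 in cluster 11 per the authors' deposited table, and its fold of 2.03 in cluster 9 was not raised. St6galnac4 and St6galnac6 are neighbours on the same strand of chromosome 2, with 10 bases between the end of one at 32599698 and the start of the other at 32599709. Reads that run past the end of St6galnac4 could be counted for St6galnac6, which limits what their shared call in cluster 4 shows.

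St6gal1 and St6gal2, which sialylate N-glycans, were raised nowhere. St6gal1 was listed in clusters 3, 4, 8 and 9 at 1.80, 1.63, 4.71 and 1.79 per the authors' deposited table. St6gal2 was listed at 4.45 in cluster 5 and 5.83 in cluster 10 per the authors' deposited table. The folds of at least 2 among these did not meet the limit on p.

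Several calls sit close to the fold of 2. Just inside it among members with a small enough p were B4galt6 in cluster 9 at 2.01, St3gal2 in cluster 9 at 2.03 and St3gal3 in cluster 2 at 2.04 per the authors' deposited table. Just outside were B4galt7 in cluster 4 at 1.94, Fut8 in cluster 6 at 1.94 and Galnt4 in cluster 6 at 1.85 per the authors' deposited table.

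Genes that supply, carry, trim or read the same sugars were taken from 8 lists chosen from textbook knowledge. The mucin list held 15 genes, of which 8 were named for any cluster and Muc5ac was not. Of these 8 named mucins, the main protein carriers of these chains, 4 were raised in cluster 9 (50%, background 26.6%). Clusters 3 and 6 had 2 each (25.0%, backgrounds 4% and 20.3%). By the authors' deposited table, Mucl3 was at 7.34 in cluster 9 and 5.46 in cluster 6, Muc20 at 11.2 in cluster 5, and Muc13 at 28.0 in cluster 10. Muc6, the mucin of gland mucous cells, was raised at 7.76 in cluster 4 per the authors' deposited table, with 1.57 in cluster 9. Muc1, the cell surface mucin, was raised at 3.27, 2.45 and 2.22 in clusters 3, 6 and 9 per the authors' deposited table.

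Of 17 named genes that make nucleotide sugars, the donors of the reaction, 5 were raised in cluster 11 (29.4%, background 17%). The 4 in cluster 9 (23.5%) and the 3 in cluster 6 (17.6%) lay below the backgrounds of 26.6% and 20.3%. In cluster 11 they included Gfpt2, an entry enzyme of the hexosamine pathway, at 182.3, Uap1, which forms UDP-GlcNAc, at 33.7, and Gne, the key enzyme of sialic acid synthesis, at 10.4 per the authors' deposited table. In cluster 6 they were Pgm3, a hexosamine pathway mutase, at 5.24, Cmas, which activates sialic acid, at 3.12, and Gmds, an enzyme of GDP-fucose synthesis, at 2.08 per the authors' deposited table. In cluster 9 they were Tsta3 at 3.64, Pgm3 at 3.45, Gnpnat1 at 2.17 and Gne at 2.06 per the authors' deposited table. Gne was thus raised in an epithelial and in the fibroblast-like cluster, in cluster 9 near the fold of 2.

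The Golgi transporters that carry nucleotide sugars had 4 of 9 named genes raised in cluster 9 (44.4%, background 26.6%) and 3 in cluster 11 (33.3%, background 17%). Slc35a1, which carries CMP-sialic acid, was raised at 4.56 in cluster 9 and 3.40 in cluster 11, and Slc35a3, which carries UDP-GlcNAc, at 5.37 in cluster 9, per the authors' deposited table. Slc35a4 was raised at 7.98 in cluster 4 and Slc35c2 at 4.84 in cluster 4, per the authors' deposited table. Slc35c1, the GDP-fucose carrier, was raised at 2.87 in cluster 5 per the authors' deposited table.

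Among 11 named sulfotransferase genes and their suppliers, 4 were raised in cluster 9 and 4 in cluster 11 (36.4% each, backgrounds 26.6% and 17%). Chst1, a sulfotransferase of keratan sulfate and selectin ligands, was at 20.2 in cluster 11 and 6.77 in cluster 4 per the authors' deposited table, and Chst2 was at 9.72 in cluster 11. Slc35b3, a transporter of the sulfate donor, was at 17.9 in cluster 5, and Slc35b2, another, at 13.1 in cluster 1, per the authors' deposited table. Chst4, a sulfotransferase of mucins and lymph node vessels, was raised at 8.27 in cluster 6 per the authors' deposited table.

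Other transferases had 5 of 11 named genes raised in cluster 6 (45.5%, background 20.3%). Their 2 in each of clusters 9 and 11 (18.2%) compare with backgrounds of 26.6% and 17%. By the authors' deposited table, B3galnt1, which makes globoside, was at 50.7 in cluster 11, B4galnt1, a ganglioside enzyme, at 7.23 in cluster 8, and the blood group gene Abo at 6.13 in cluster 10 and 5.66 in cluster 6. The alpha-2,8-sialyltransferases had 2 of 4 named genes raised in cluster 4 (background 18.6%). St8sia4, a polysialic acid synthase, was at 33.2 in cluster 4, St8sia6 at 5.19 there and St8sia3 at 4.79 in cluster 9, per the authors' deposited table.

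Enzymes that remove sugars had 4 of 8 named genes raised in cluster 4 (50%, background 18.6%) and 3 each in clusters 6 and 9 (37.5%, backgrounds 20.3% and 26.6%). The lysosomal hexosaminidase Hexa was at 7.84 in cluster 8 and 5.68 in cluster 4, and the fucosidase Fuca1 at 4.20 in cluster 4, per the authors' deposited table. Fuca2, a second fucosidase, was raised at 3.38 in cluster 6 per the authors' deposited table. Lectins, which bind finished chains, had 6 of 17 named genes raised in cluster 4 (35.3%, background 18.6%) and 4 in cluster 6 (23.5%, background 20.3%). Clusters 10 and 11 had 3 each (17.6%, backgrounds 4.9% and 17%), and cluster 9 had 1 (5.88%, background 26.6%). The macrophage lectins Cd209b and Siglec1 were at 51.3 and 23.5 in cluster 4, and P-selectin (Selp) at 24.1 in cluster 10, per the authors' deposited table.

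**Figure D4:**
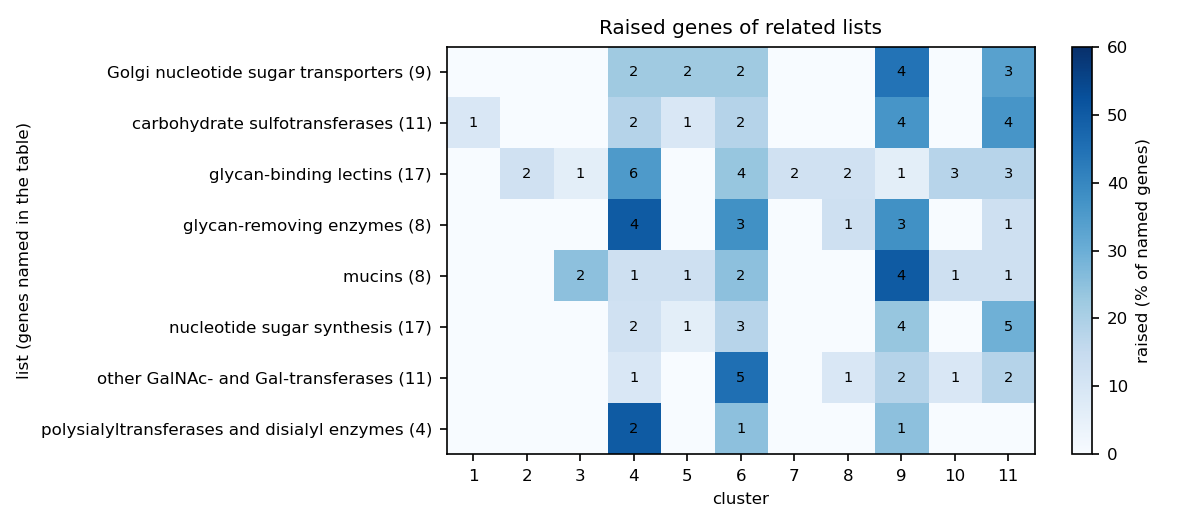
Number of raised genes (in the cells) and their share of the named genes (colour, percent) for 8 related gene lists (rows, number of named genes in brackets) in each cluster (columns). Clusters 4, 6, 9 and 11 hold 79.2% of the 106 raised calls of these lists, against 74.8% of the raised calls of all genes, with 5 nucleotide sugar genes in cluster 11 and 6 lectins in cluster 4.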

How the data were processed

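Cells of 1 cystic and 1 tubular adenocarcinoma, grouped by tumor type from the labels, were captured with inDrop and made into TruDrop libraries, per the labels' protocols. The submitters' processing notes name mm10, STAR 2.7.3a, Partek and DESeq2 3.5, without the step each served. Cell filters, doublet treatment, clustering and cells per cluster are not stated in the sources used here.

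The values are a linear fold (a ratio) and a p-value for each gene and cluster, as the authors deposited them, per the file headers; the smallest fold is 1.50. The table pools the tumors and holds 0 columns of per-sample values, so depth is unknown and no test was run. Genes listed in no cluster are not seen, and genes found in few cells can have very large folds.

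With Python 3.11.15 and pandas 2.3.3 the members were matched by name and counted as raised if the fold reached 2 and the deposited p did not exceed 0.05, beside the same share over the 18319 named genes. The counting was tested on simulated tables. Members are all given; of the related lists, the 3 raised genes of largest fold, and further genes chosen after their values were seen; 1 gene of these lists is not reported here and not counted. The members and lists were chosen with earlier results of these data known. Coordinates are from GENCODE M21 on GRCm38 (mm10), 1-based, with 58 of 59 members matched. Alternatives were a fold above 1.5 or of at least 3, a limit of 0.01 on p, and none on p. A further one left out 15 chosen members that act on N-glycans, glycolipids or proteoglycans, though not every such member.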

Additional observations from a re-analysis of the deposited data

How the results depend on the processing

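No paired analysis was possible because each tumor type has 1 library and the table holds no value per sample. At a fold of at least 1.5 and without Galnt6os and Galnt2l (an alternative chosen after seeing the data), the number of raised members stayed within 1.5 times its value in all 11 clusters. So did the number raised in at least 1 cluster under every alternative, at 41 to 59. The 41 were of the 44 members left after 15 were taken out by choice (93.2%, against 78.0% of all genes). The 15 act on N-glycans, glycolipids or proteoglycans, St6galnac3 among them also on core 1 chains. The 44 still held members that act on such molecules too, such as B3gnt7 and St3gal2, so they are not mucin-type enzymes alone. The 59 were all members, with no limit on p, where 98.9% of all genes were also called. The lowest share was at a fold of at least 3, with 43 of 59 (72.9%, against 60.8%). At a fold of at least 3 clusters 1 and 2 had 1 each (1.69%, against 1.4% and 1.92% of all genes), cluster 6 had 9 (15.3%, against 12%) and cluster 9 had 14 (23.7%, against 14.1%). With no limit on p cluster 1 had 4, cluster 3 had 11, cluster 5 had 13, cluster 7 had 2, and clusters 8 and 10 had 10 each. Their shares and backgrounds are given in the text. A p of at most 0.01 left 1 in each of clusters 2 and 3 (1.69%, against 2.0% and 1.98% of all genes). Leaving out 15 members that act on N-glycans, glycolipids or proteoglycans left 1 in cluster 3 (2.27%, against 4% of all genes). The member lost there was the proteoglycan linker enzyme B3galt6. No gene was listed more than once in a cluster, so taking the row of largest fold gave the same folds. The cells behind each fold are unknown, which limits the large folds most.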
